A study of Homo sapiens with 26 samples.

Results

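Chromosome 10 carried 4869 of the 87206 binding sites that were called for the estrogen receptor (ER) and the progesterone receptor (PR) in T47D cells and in PR-deficient T47D cells. The sites were chosen by 1 measured value, their called position on chromosome 10 of the hg19 build, from 10 lists, and none was left out by its score or length. Counts by position are therefore descriptions of what the choice already used. T47D is an established human breast cancer cell line that carries both receptors. The other line is labelled PR-deficient T47D; the labels do not say how PR was lost or whether the line is 1 clone. All cells had first been kept without steroids for 48 h in charcoal-stripped serum. Hormone was then added for 45 min: estradiol (E2, an estrogen) at 10 nM, the progestin R5020 at 10 nM, or the 2 together. Binding was read by chromatin immunoprecipitation and sequencing (ChIP-seq) with an ER antibody in either line, with a PR antibody in T47D, and with ER and then PR antibodies in sequence (reChIP) in T47D given both hormones. Each list comes from 1 library with the vehicle library subtracted (vehicle and IgG for the reChIP), so no value has a replicate error. Intervals below are exact Clopper-Pearson 95% intervals, cover counting error over sites only, and compare these libraries, not the conditions.

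ER and PR are nuclear receptors that bind DNA as dimers when their steroid ligand is present. ER recognises estrogen response elements and PR recognises elements that it shares with other steroid receptors, and both mostly bind far from promoters, in open chromatin that other factors have prepared. Their sites are spread unevenly along chromosomes, which is why position is described here list by list. Which genes lie at the sites was not analysed here.

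ER sites on chromosome 10 in T47D numbered 231 with E2, 302 with R5020 and 946 with both hormones. PR sites numbered 506 after E2, 472 after R5020 and 791 after both, and reChIP sites 607. ER sites in PR-deficient cells numbered 419 after E2, 312 after R5020 and 283 after both. Raising the lowest score kept by 1 step (the smallest unit by which a list's scores rise) thinned some lists strongly. In T47D, 147 of 302 ER sites with R5020, 218 of 506 PR sites with E2 and 471 of 791 with both remained. In PR-deficient cells 154 of 312 remained with R5020. The other lists kept most sites, from 401 of 472 (PR with R5020) to 938 of 946 (T47D ER with both). The chromosome makes up 4.38% of the length of all chromosomes (each taken up to its last site). Its share of a list was 7.42% (6.79 to 8.10) for PR with R5020, the largest, and 3.41% (3.05 to 3.81) for PR-deficient ER with R5020, the smallest. By sites per Mb, chromosome 10 ranked between 6 and 13 among 24 chromosomes. The density was 6.98 sites per Mb for T47D ER with both hormones against 6.18 on all other chromosomes, and 5.84 against 3.76 for PR with both. With all sites counted, the PR-deficient R5020 list was the 1 list with a lower density than elsewhere, 2.30 against 2.98. Without the sites within 2 Mb of the longest empty stretch (described below), chromosome 10 held 3.84% (3.57 to 4.12) of the sites of T47D ER with both hormones and 4.05% (3.67 to 4.47) of the reChIP sites, in place of 4.92 and 6.16%. The chromosome's 4.38% of length still counts these flanks and the empty stretch, and it lies within the reChIP interval. Site lengths were close to those elsewhere: the median length on chromosome 10 was 1208 bp for T47D ER with E2 (1170 bp elsewhere), 1062 bp (1077 bp) and 1206 bp (1333 bp) for PR-deficient ER with E2 and with both hormones, and between 148 and 289 bp in the other 7 lists. The same 3 lists had wide sites on the other chromosomes. The chromosome was chosen with these counts known, so they are a description.

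Along the chromosome, sites were counted by their centre in 28 bins of 5 Mb from the tip of the p arm, the last of which covers 0.525 Mb. Over all lists the bin of 45 to 50 Mb was the fullest, with 409 sites, followed by 0 to 5 Mb with 404, 40 to 45 Mb with 358 and 100 to 105 Mb with 331. The bins of 30 to 35 Mb and 105 to 110 Mb were the emptiest full bins, with 34 sites each, and each of them had sites in 7 of the 10 lists.

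The PR lists shared 1 profile. With both hormones, PR sites numbered 82, 56 and 66 in the first 3 bins, then 11 from 15 to 20 Mb and 1 from 20 to 25 Mb. They rose again to 103 from 45 to 50 Mb, to 61 and 59 from 75 to 80 and 80 to 85 Mb, and to 58 and 61 from 95 to 100 and 100 to 105 Mb. The next bin held 0 and the 5 full bins after it 3 to 10 each. With R5020 alone the PR list held 54, 39 and 40 sites in the first 3 bins, 60 from 45 to 50 Mb, 44 from 100 to 105 Mb and 0 from 105 to 110 Mb. With the lowest score raised by 1 step the fullest bin of PR with E2 moved from 0 to 5 Mb to 45 to 50 Mb. As listed, PR with E2 held 63, 34 and 34 in the first 3 bins, 55 from 45 to 50 Mb, 47 from 100 to 105 Mb and 3 from 105 to 110 Mb. PR with E2 thus had its blocks of sites in the same bins as PR with R5020, although the lists share few sites (below).

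T47D ER with R5020 followed the PR profile, and T47D ER with E2 did not. ER with R5020 held 43 sites from 45 to 50 Mb, 33 from 0 to 5 Mb, 31 from 95 to 100 Mb, and 0 from 25 to 35 Mb and from 105 to 110 Mb. ER with E2 was fullest from 5 to 10 Mb with 20 sites, from 80 to 85 Mb with 17 and from 130 to 135 Mb with 16. In the higher-scoring 50% of that list the fullest bin was 110 to 115 Mb, with 10 sites. The bin of 130 to 135 Mb held 1 ER site with R5020 and between 3 and 7 PR sites. ER with both hormones had 148 sites from 35 to 40 Mb and 82 from 40 to 45 Mb, against 1 and 3 with E2. Its other bins held 6 to 62 sites and none was empty. Without the flanks of the long empty stretch its fullest bin was 45 to 50 Mb, with 62 sites, and that of the reChIP was 0 to 5 Mb, with 42.

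In PR-deficient cells the ER lists of E2 and of both hormones were fullest from 75 to 85 Mb, with 35 and 35 sites and with 26 and 26 sites in the 2 bins. The R5020 list of these cells was fullest at 0 to 5 Mb, with 44 sites, and at 100 to 105 Mb, with 37. It held 6 sites from 45 to 50 Mb, where T47D ER with R5020 and the PR lists held 43 to 103. Fullness varied: the fullest bin took 23.1% (19.8 to 26.6) of the reChIP sites but 8.35% (5.89 to 11.4) of the PR-deficient ER sites with E2. As few as 4 bins held 50% of the reChIP sites, against 8 bins for ER with E2 in either line.

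**Figure D1:**
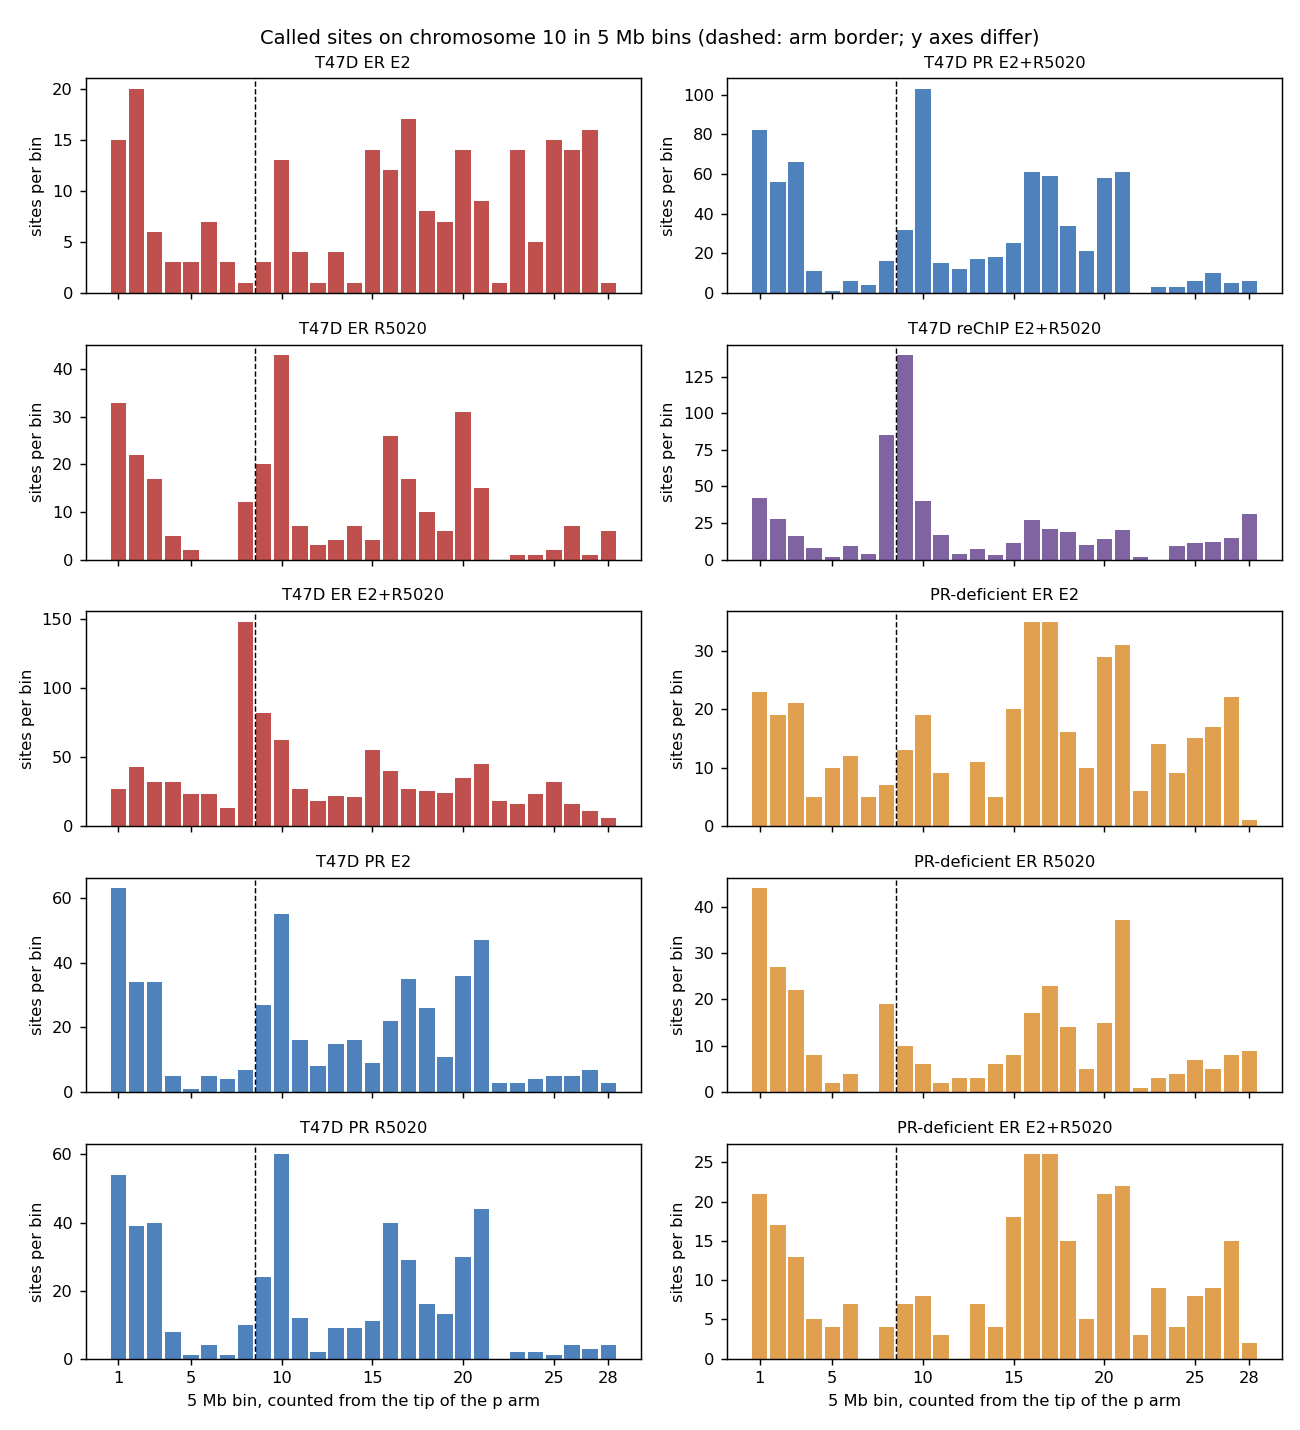
Sites per 5 Mb bin (y axis, count; scales differ between panels) along chromosome 10 (x axis, bin number from the p tip; the last bin covers 0.525 Mb) for each of the 10 lists, each 1 library. Bin 10 is the fullest of PR with both hormones (103 sites) and bin 22 holds 0 there, while the reChIP list peaks in bin 9 (140) and ER with both hormones in bin 8 (148).

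The likeness of 2 profiles was described by Spearman's rho over the 28 bins. It was 0.96 between PR with R5020 and PR with both hormones, 0.95 between PR with E2 and PR with both, 0.91 between T47D ER with R5020 and PR with R5020, and 0.90 between T47D ER with R5020 and PR with both. Between the ER lists of E2 in either line rho was 0.83, and between PR-deficient ER with E2 and with both hormones it was 0.96. Between T47D ER with E2 and with R5020 it was 0.30, and between E2 and both hormones 0.22. Over the 26 bins left without the 2 at the empty stretch these values were 0.38 and 0.41. So the profile of T47D ER with R5020 was closer to PR in the same cells than to T47D ER with E2. With T47D ER of both hormones its rho was 0.66. The 3 lists of wide sites had values of 0.83 to 0.96 among themselves. ER with R5020 and the PR lists have narrow sites and T47D ER with E2 wide ones. Hormone, receptor and site width therefore cannot be told apart in this likeness. The R5020 list of PR-deficient cells was also like the PR lists, though less so. It was about as like the reChIP list and PR-deficient ER of both hormones. Its rho was 0.75 with PR of R5020, 0.74 with PR of both hormones and 0.68 with PR of E2. With T47D ER it was 0.75 for R5020, 0.59 for both hormones and 0.44 for E2. With the reChIP it was 0.76, and with PR-deficient ER 0.72 for both hormones and 0.64 for E2. Over the 26 bins it was 0.79 with PR-deficient ER of both hormones and 0.74 with PR of R5020. All points come from 1 chromosome and single libraries, and where line and antibody are the same the vehicle library taken off is the same too, so these values are descriptions without a test.

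The border between the arms, 40200000, lies within the longest stretch where no list had a site, from 39154908 to 42355393 (3.20 Mb), so it divides no site or cluster. The p arm is 29.7% of the length. PR-deficient ER with R5020 had the largest p arm share, 126 of 312 sites (40.4%, 34.9 to 46.1), or 3.13 sites per Mb on the p arm and 1.95 on the q arm. T47D ER with both hormones followed with 341 of 946 (36.0%, 33.0 to 39.2), and PR with R5020 with 157 of 472 (33.3%, 29.0 to 37.7). The p arm share was smallest in the 3 lists of wide sites: 58 of 231 (25.1%, 19.7 to 31.2) for T47D ER with E2, 102 of 419 (24.3%, 20.3 to 28.7) for PR-deficient ER with E2 and 71 of 283 (25.1%, 20.1 to 30.6) for PR-deficient ER with both hormones. The other 4 lists lay between 30.1 and 32.0%. Without the sites within 2 Mb of the long empty stretch, the share for T47D ER with both hormones was 27.9% (24.7 to 31.4) and that of PR-deficient ER with R5020 was 37.8% (32.1 to 43.7). Within the p arm, sites crowded towards the tip, except in T47D ER with both hormones and the reChIP. These lists held 148 and 85 sites from 35 to 40 Mb, against 102 and 86 in the first 15 Mb. Of the 242 p arm PR sites with both hormones, 204 lay in the first 15 Mb and 22 between 15 and 35 Mb. For ER with both hormones the same counts were 102 and 91 of 341, or 10.8 and 9.62% of that list, the smallest gap between these shares among the 10 lists.

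**Figure D2:**
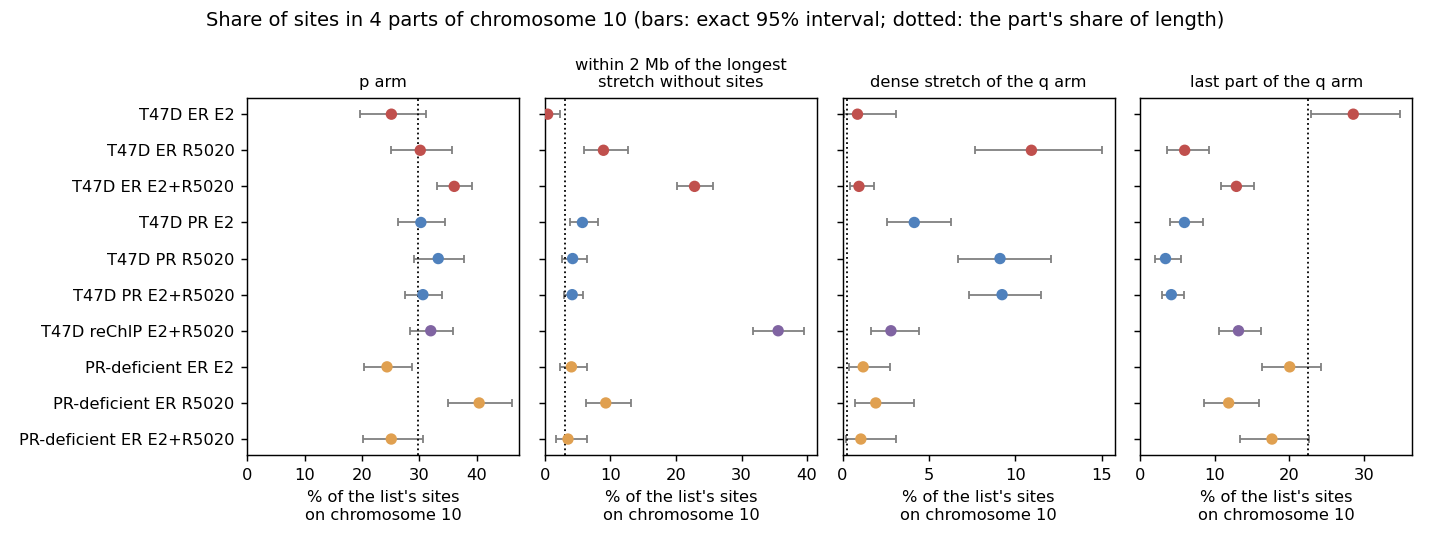
Share of each list's chromosome 10 sites (x axis, percent) in 4 parts of the chromosome: the p arm, the flanks of 2 Mb on both sides of the longest stretch without sites, the dense stretch at 47 Mb and the part beyond 105 Mb. Points are single libraries, bars are exact 95% intervals over sites and dotted lines are the part's share of length; the reChIP list stands at 35.6% in the flanks and T47D ER with E2 at 28.6% beyond 105 Mb.

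Sites of 2 lists crowded against that empty stretch, which holds the arm border. Whether reads can be placed in or next to the stretch was not tested. The flanks of 2 Mb on both of its sides are 3.02% of the rest of the chromosome, and held 216 of 607 reChIP sites (35.6%, 31.8 to 39.5) and 216 of 946 sites of T47D ER with both hormones (22.8%, 20.2 to 25.6). Shares were 8.94% (5.97 to 12.7) for T47D ER with R5020 and 9.29% (6.31 to 13.1) for PR-deficient ER with R5020, and between 3.53 and 5.73% in the PR lists and the other PR-deficient lists. T47D ER with E2 had 1 site of 231 there (0.433%, 0.011 to 2.39). Most of these sites lay within 500 kb of the empty stretch: 133 on the p side and 64 on the q side for T47D ER with both hormones, and 76 and 123 for the reChIP. The longest runs of sites (successive centres within 100 kb) were therefore 123 reChIP sites from 42355393 to 42815447 and 74 ER sites of both hormones from 39076903 to 39154908. In these 2 lists the flank sites were narrower and of higher score than elsewhere: the median length was 185.5 bp against 214 bp for ER with both hormones and 206 bp against 293 bp for the reChIP. The median reChIP score was 12 steps (a step is the smallest unit by which scores of a list rise) in the flanks and 6 elsewhere, and for ER with both hormones it was 10 against 7. ER with R5020 went the same way, with 182 against 251 bp and 12 against 9 steps in T47D. In PR-deficient cells it had 90 against 243 bp and 7 against 6 steps. PR-deficient ER with both hormones did so too (1097 against 1217 bp, 24.5 against 21 steps). With E2 these cells had 25 against 26 steps, and each PR list had equal median scores in the flanks and elsewhere. The reChIP list also had a run of 50 sites on the p side, from 39030557 to 39153172. Of the flank sites of the reChIP list, 27 of 216 (12.5%, 8.40 to 17.7) met an ER site of both hormones and 5 (2.31%, 0.756 to 5.32) met a PR site of both, against 88 and 61 of the 374 sites (23.5%, 19.3 to 28.2, and 16.3%, 12.7 to 20.5) outside the flanks and the dense stretch described next. When sites within 5 kb of each other were joined, the flanks held 10.3% of the reChIP sites and 4.55% of those of T47D ER with both hormones.

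The densest stretch of PR sites lay on the q arm from 46873423 to 47192862, 319 kb or 0.236% of the chromosome. It was found as the longest run of PR sites with both hormones, 73 in number, so that count is fixed by the choice. Sites of 3 other T47D lists also crowded there: 43 PR sites with R5020 (9.11%, 6.67 to 12.1, of that list's chromosome 10 sites), 33 ER sites with R5020 (10.9%, 7.64 to 15.003) and 21 PR sites with E2 (4.15%, 2.59 to 6.27). In each of these 3 lists it was the longest run as well. The reChIP list had 17 sites there and T47D ER with both hormones 9. T47D ER with E2 had 2, and the PR-deficient lists had 5 with E2, 6 with R5020 and 3 with both hormones. The 33 ER sites of T47D with R5020 thus stood against 6 in PR-deficient cells with the same hormone, where the subtracted vehicle library is another and the depths are unknown.

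Sharing within the stretch was counted for some pairs of lists. Where the second list is PR with both hormones, a higher share inside is built in, since the stretch was chosen as that list's longest run, so those values are a description only. Of its PR sites with E2, 14 of 21 (66.7%, 43.0 to 85.4) lay at a PR site of both hormones, against 33 of 456 (7.24%, 5.03 to 10.0) outside the stretch and the flanks. For PR with R5020 the shares were 18 of 43 (41.9%, 27.0 to 57.9) and 36 of 409 (8.80%, 6.24 to 12.0). For ER with R5020 at PR sites of R5020 they were 10 of 33 (30.3%, 15.6 to 48.7) and 10 of 242 (4.13%, 1.999 to 7.47). The longest runs of both of these lists lie in the stretch as well. Crowded sites meet more easily, so this value is a description too. Not every pair had a higher share inside. ER sites with R5020 met ER sites of both hormones in 2 of 33 cases in the stretch (6.06%, 0.743 to 20.2) and in 36 of 242 outside (14.9%, 10.6 to 19.995). The PR sites of both hormones covered 28.95 kb of the 319 kb. None of the 9 ER sites of both hormones and 1 of the 17 reChIP sites in the stretch met a PR site of both hormones. Joining sites within 5 kb brought the stretch down to 2.78% of the PR sites with both hormones, from 9.23% (7.30 to 11.5). Runs as long occur on other chromosomes: the longest PR run with both hormones anywhere held 757 sites on chromosome 3, and that of chromosome 10 ranked 10.

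**Figure D3:**
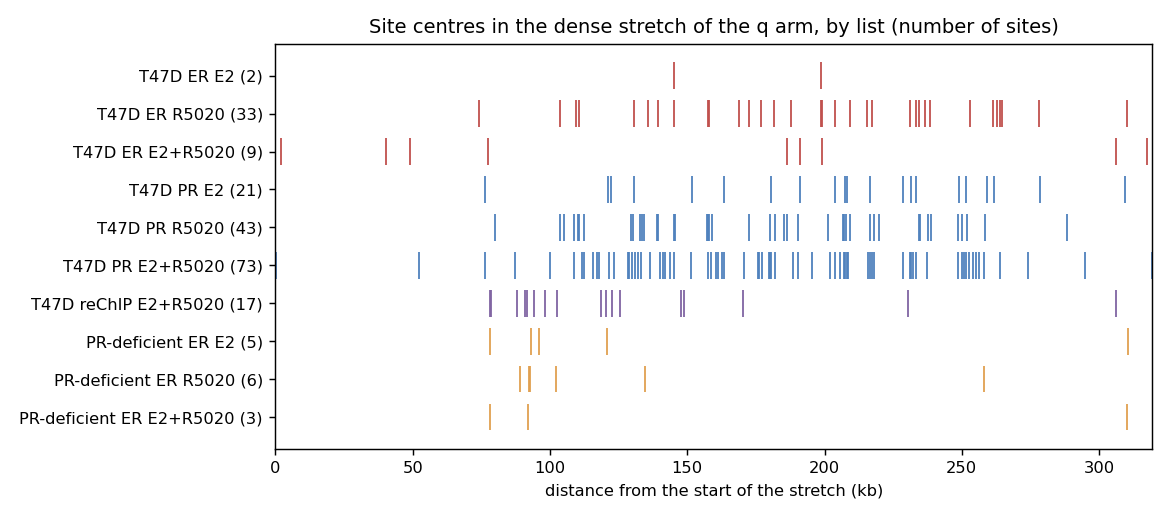
Centres of the sites in the dense stretch of the q arm (x axis, kb from its start), 1 row per list with the number of sites in parentheses; each line is 1 site of 1 library. Sites of PR and of ER with R5020 fill the middle of the stretch, with 73, 43, 33 and 21 sites, while the rows of PR-deficient cells hold 3 to 6.

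Both lines also had runs of sites between 80446577 and 81273064, though not all of these runs overlapped. The run of T47D ER with E2 ended before those of ER with R5020 in either line began. It also ended before that of PR-deficient ER with both hormones. PR-deficient ER with E2 had its longest run there, 20 sites from 80513947 to 81103601, and PR-deficient ER with both hormones had 12 from 80852946 to 81103310. In T47D, PR with both hormones had 29 sites from 80446577 to 81144426, PR with E2 20 from 80659875 to 81273064, PR with R5020 11 from 80690593 to 81032366, ER with R5020 8 from 80813047 to 81134654 and ER with E2 7 from 80513531 to 80738481. PR-deficient ER with R5020 had 11 from 80830733 to 81034365. T47D ER with both hormones and the reChIP list had none of their 4 longest runs there. The longest run of T47D ER with E2 was elsewhere, 9 sites from 6201006 to 6444372.

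The last part of the q arm held a larger share of the ER sites with E2 than of the PR sites or of the ER sites with R5020. The 30.5 Mb beyond 105 Mb are 22.5% of the chromosome and held 66 of 231 T47D ER sites with E2 (28.6%, 22.8 to 34.9). They held 18 of 302 ER sites with R5020 (5.96%, 3.57 to 9.26), 16 of 472 PR sites with R5020 (3.39%, 1.95 to 5.45), 30 of 506 PR sites with E2 (5.93%, 4.04 to 8.36) and 33 of 791 PR sites with both hormones (4.17%, 2.89 to 5.81). The T47D ER list of both hormones lay between, with 122 of 946 (12.9%, 10.8 to 15.2), as did the reChIP list with 80 of 607 (13.2%, 10.6 to 16.1). In PR-deficient cells the shares were 84 of 419 with E2 (20.05%, 16.3 to 24.2), 50 of 283 with both hormones (17.7%, 13.4 to 22.6) and 37 of 312 with R5020 (11.9%, 8.49 to 16.0). ER with R5020 had a smaller share there than ER with E2 in both lines. In PR-deficient cells the intervals overlapped under 3 other settings. They were 15.6% (10.2 to 22.3) with R5020 and 20.6% (16.7 to 24.9) with E2 with the lowest score raised by 1 step. With the higher-scoring 50% of each list they were 15.2% (9.98 to 21.8) and 19.3% (14.3 to 25.1), and without the flanks of the empty stretch 13.1% (9.38 to 17.6) and 20.9% (17.02 to 25.2). The PR lists had a low share with each hormone, E2 included. The 3 lists with the largest shares beyond 105 Mb were the 3 lists of wide sites (median 1208, 1062 and 1206 bp). Hormone and site width therefore cannot be told apart between ER with E2 and ER with R5020. The limit of 105 Mb was set after the profiles had been seen, so the contrast is a description. Long stretches without sites began near that limit in several lists: PR with R5020 had no site from 104781241 to 111737036, PR with both hormones none from 104792204 to 110983636, T47D ER with R5020 none from 104535985 to 114724429 and the reChIP none from 105678323 to 115438395. In PR-deficient cells the empty stretch ran from 106241489 to 111985389 with E2. None of the 3 longest gaps of T47D ER with both hormones lay there, and this list held 18 of the 34 sites from 105 to 110 Mb. The E2 sites beyond 105 Mb were found again in PR-deficient cells at 40 of 66 (60.6%, 47.8 to 72.4), against 28 of 58 (48.3%, 34.95 to 61.8) on the p arm, intervals that overlap. They were found with both hormones in T47D at 9 of 66 (13.6%, 6.43 to 24.3).

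The highest-scoring sites also fell in different places. T47D ER with E2 was led on chromosome 10 by chr10:71198173-71199909, which ranked 8 in that list over all chromosomes and was also listed in PR-deficient cells with E2 and with both hormones, in the T47D ER list of both hormones and in the reChIP. It was in no PR list and not in the ER list of R5020. The next were chr10:127312837-127315297 and chr10:128605266-128608847, both beyond 105 Mb. In T47D ER with R5020 and with both hormones the same place led, chr10:79631823-79632818 with R5020, where its score was 34 steps, and the site overlapping it with both hormones, with 50 steps and rank 2 over all chromosomes. This place ranked 3 on chromosome 10 for PR with both hormones and 21 for the reChIP. It ranked 66 and 57 in PR-deficient cells with E2 and with both hormones and was not in the T47D ER list of E2. PR with both hormones and with R5020 was led by overlapping sites at chr10:35784124-35785079 and chr10:35784612-35784897. The leading PR site with R5020 was tied in score, at 8 steps, with chr10:43836109-43836272. The next PR site of both hormones, chr10:1658516-1660088, was in all 3 PR lists.

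PR sites with E2 had as their highest chr10:11868682-11868969, listed nowhere else and tied at 16 steps with chr10:70275195-70275459. The reChIP list was led by chr10:42384099-42385736, chr10:42596688-42597256 and chr10:42392013-42394606, all against the long empty stretch and in no other list. In PR-deficient cells, chr10:80915850-80920221 led with E2 and chr10:80916715-80919197 with both hormones, each in the longest run of its list. Next came chr10:5700692-5703069 and chr10:5701328-5703769. The R5020 list of these cells was led by chr10:38815009-38815159 and chr10:38785695-38785803, in the p side flank.

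Sharing between lists was measured as the share of a list's chromosome 10 sites that overlapped a site of another list by 1 bp or more. All 90 ordered pairs were computed, and in 83 of them the intervals of chromosome 10 and of all other chromosomes overlapped. In T47D, ER sites with E2 lay at ER sites of both hormones in 51 of 231 cases (22.1%, 16.9 to 27.99, against 19.3% on all other chromosomes) and at ER sites of R5020 in 22 (9.52%, 6.07 to 14.1, against 6.16%, or 0.866% under the stricter rule given below). ER sites with R5020 lay at ER sites of both hormones in 50 of 302 (16.6%, 12.5 to 21.2, against 17.8%). PR sites with E2 lay at PR sites of both hormones in 49 of 506 (9.68%, 7.25 to 12.6, against 12.4%) and at PR sites of R5020 in 7 (1.38%, 0.558 to 2.83, against 2.16%, or 0.395% under that rule). For PR with R5020 at PR with both the count was 58 of 472 (12.3%, 9.46 to 15.6, against 14.3%). Most of these shares fell under a stricter rule, an overlap of 50% or more of both sites: ER with E2 at ER of both hormones to 2.60%, PR with R5020 at PR of both to 1.27% and PR with E2 at PR of both to 6.32%. The median site was 1208 bp in the ER list of E2 and 209 bp in that of both hormones, lengths that can hardly meet that rule. For PR with R5020 and PR with both the medians were 148 and 289 bp, which also makes the rule hard to meet. With centres within 200 bp that pair had 10.6% in place of 12.3%. ER with E2 at ER of both then had 15.6% and PR with E2 at PR of both 8.89%. So the bins of PR with E2 and PR with R5020 were alike in fullness while 7 of 506 sites were the same.

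ER and PR sites of the same treatment met in 5 of 231 ER sites with E2 (2.16%, 0.706 to 4.98, against 2.38% elsewhere), 21 of 302 with R5020 (6.95%, 4.36 to 10.4, against 8.36%) and 64 of 946 with both hormones (6.77%, 5.25 to 8.56, against 5.08%). Under the same stricter rule these shares were 0, 1.32 and 4.12%. In the first 15 Mb the last share was, at 1 bp, 22 of 102 (21.6%, 14.0 to 30.8), and in the flanks of the empty stretch 3 of 216 (1.39%, 0.287 to 4.01). The reChIP sites met ER sites of both hormones in 116 of 607 (19.1%, 16.1 to 22.5, against 19.5%) and PR sites of both hormones in 67 (11.04%, 8.66 to 13.8, against 12.2%). Without the flanks these shares were 22.8 and 15.9%, and under the stricter rule 13.8 and 7.58%. In the first 15 Mb 20 of 86 reChIP sites met a PR site (23.3%, 14.8 to 33.6), and beyond 105 Mb 4 of 80 did (5%, 1.38 to 12.3).

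Between the lines, ER sites of T47D with E2 were found in PR-deficient cells with E2 in 124 of 231 cases (53.7%, 47.02 to 60.2, against 55% on other chromosomes). With both hormones the count was 31 of 946 (3.28%, 2.24 to 4.62, against 4.84%), or 0.740% under the stricter rule. With R5020 it was 9 of 302 (2.98%, 1.372 to 5.58, against 7.01%), and none of those 9 lay in the dense stretch at 47 Mb. This was 1 of the 7 pairs whose intervals lay apart, and 6 of the 7 involved the PR-deficient R5020 list. A smaller share of the PR sites met it on chromosome 10 than elsewhere: with R5020 0 of 472 (0%, up to 0.778, against 1.39%), with E2 6 of 506 (1.19%, 0.436 to 2.56, against 3.14%), and with both hormones 6 of 791 (0.759%, 0.279 to 1.64, against 3.01%). Counted as shares of the PR-deficient R5020 list itself, which was sparser here than elsewhere, the intervals overlapped in all 3. The shares were 0 against 0.883%, 1.92 against 2.70% and 1.92 against 3.75%. Counted in the same way, T47D ER with R5020 gave 2.88% (1.33 to 5.41) against 4.01%, intervals that also overlap. Sites of the PR-deficient R5020 list were found more often in the other lists of PR-deficient cells. The counts were 66 of 312 with E2 (21.2%, 16.8 to 26.1, against 15.2%) and 89 with both hormones (28.5%, 23.6 to 33.9, against 19.9%). Counted as shares of those other lists, the intervals overlapped: 12.9 against 14.8% with E2 and 25.4 against 25.1% with both hormones. The remaining pair was T47D ER with both hormones at reChIP sites, 120 of 946 (12.7%, 10.6 to 14.98, against 10.2%); without the flanks it was 12.9% (10.5 to 15.5), an interval that overlaps that of the other chromosomes. Single chromosomes varied widely in these shares. For ER with R5020 in PR-deficient cells they ran from 2.51 to 16.9% over 20 other chromosomes with 50 sites or more, with a median of 8.86%, and 1 of them lay below chromosome 10. For ER with both hormones at reChIP sites 6 of 23 other chromosomes lay above it.

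**Figure D4:**
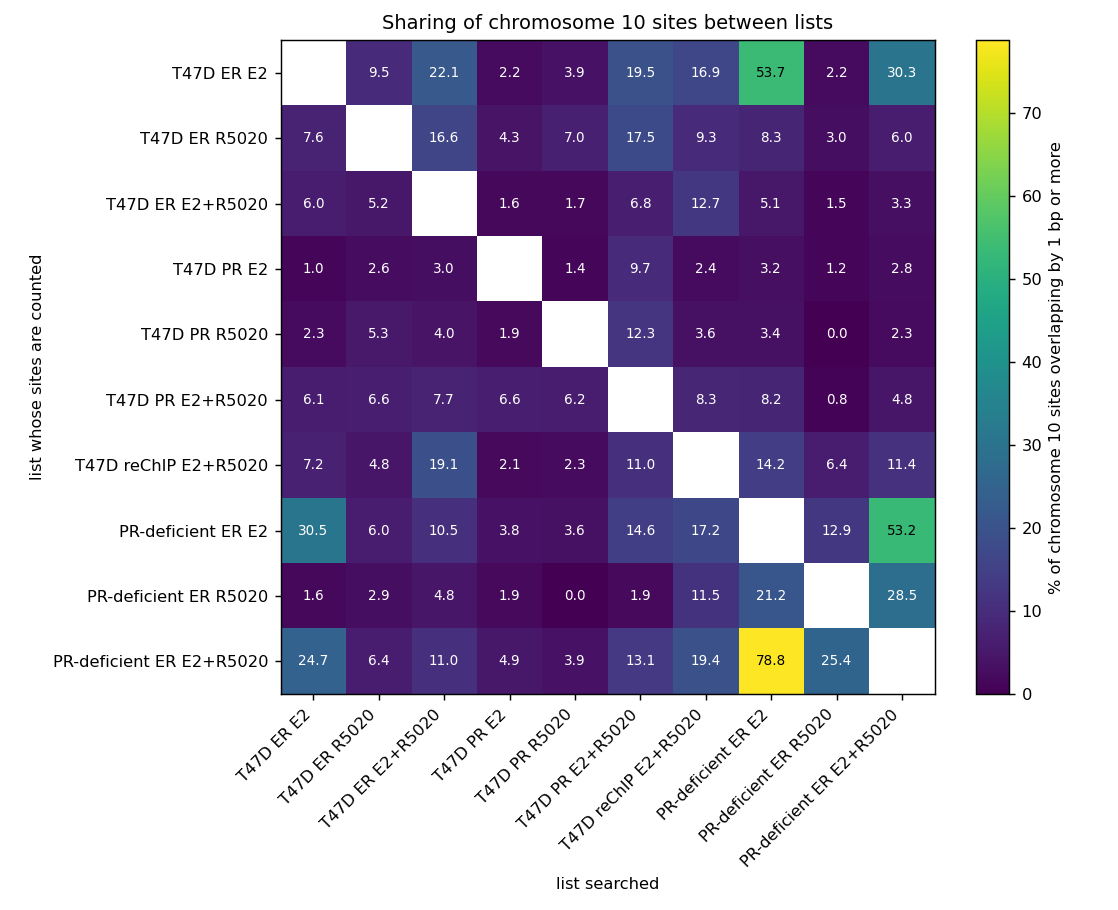
Percent of the chromosome 10 sites of the list in the row that overlap a site of the list in the column by 1 bp or more; each list is 1 library. The highest values are those of PR-deficient ER with both hormones in E2 (78.8%), T47D ER with E2 in PR-deficient E2 (53.7%) and PR-deficient ER with E2 in both hormones (53.2%).

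When overlapping sites of all lists were merged, chromosome 10 had 3667 regions. Of these, 2988 (81.5%, 80.2 to 82.7) were held by 1 list, 412 by 2, 157 by 3, 65 by 4, 31 by 5, 9 by 6 and 5 by 7, and 0 by 8 or more. Regions held by 3 or more lists numbered 267 (7.28%, 6.46 to 8.17), against 7.99% on all other chromosomes, and those held by 6 or more 14 (0.382%, 0.209 to 0.640, against 0.498%). Both shares are near the background. On other chromosomes 26 of 60823 regions were held by 8 lists and 1 by 9. The most common pairs among regions of 2 lists were PR-deficient ER with E2 and with both hormones (63), T47D ER with both hormones and reChIP (43) and ER with E2 in the 2 lines (34). The share held by 3 or more lists was 12.6% (9.37 to 16.5) beyond 105 Mb, 10.6% (5.92 to 17.2) in the dense stretch at 47 Mb and 2.95% (1.66 to 4.81) in the flanks of the empty stretch.

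**Figure D5:**
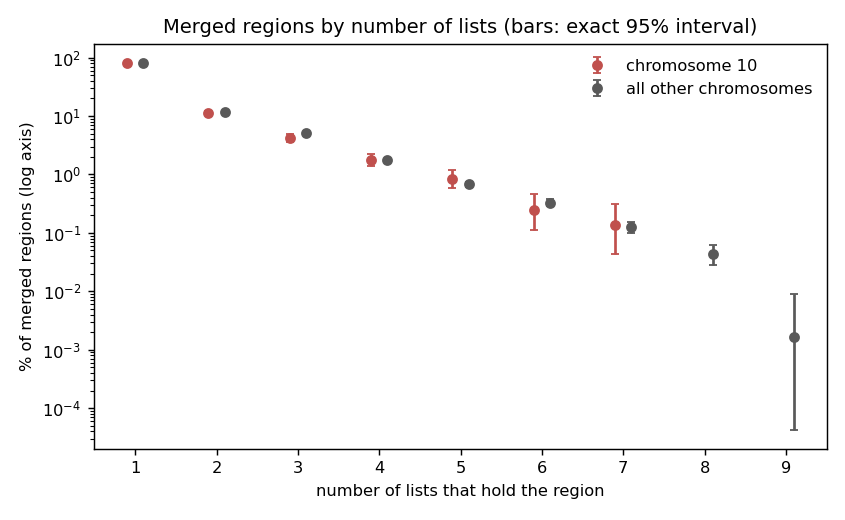
Percent of merged regions (y axis, log scale) by the number of lists that hold them (x axis), for chromosome 10 and for all other chromosomes, with exact 95% intervals over regions. The points of chromosome 10 lie at 81.5% for 1 list and 0.136% for 7 lists, and no region of it was held by 8 lists or more.

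The 14 regions held by 6 or more lists were 1060 to 3582 bp long, 3 on the p arm and 11 on the q arm. Merged regions of any number of lists numbered 1181 on the p arm and 2486 on the q arm. All 14 were in the PR list of both hormones, the reChIP list and the PR-deficient ER list of E2, 13 in the T47D ER list of both hormones, 12 in the PR-deficient list of both hormones and 8 in the T47D ER list of E2. The PR list of R5020 held 4, the PR list of E2 2 and the PR-deficient R5020 list 1. Long lists and lists of wide sites more easily take part in such regions, so these counts follow partly from the choice. The same counts for other chromosomes are not given here. Regions in 7 lists were chr10:6338297-6340942, chr10:44273697-44276227, chr10:49495218-49497524, chr10:80887825-80889343 and chr10:127312837-127315297. The region at 6338297 was the only one of these 5 absent from the PR-deficient list of both hormones and, with that at 80887825, 1 of 2 in the PR list of R5020. The regions chr10:79616220-79617956, chr10:79631764-79632823, chr10:80852946-80856363 and chr10:80887825-80889343 lay within 79 to 81 Mb and none of them was in the T47D ER list of E2. On the p arm the others were chr10:12913783-12915965 and chr10:17487126-17488508. The remaining q arm regions were chr10:71181251-71182368, chr10:95194479-95195816, chr10:99330964-99332784 and chr10:128605266-128608847. The region at 99330964 was the 1 that the PR-deficient R5020 list held. No such region lay in the dense stretch at 47 Mb.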

How the data were processed

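ChIP-seq of 26 samples, 1 library in each of 26 groups, was done with 10 site lists deposited, and the other 16 samples (vehicle, input and control libraries) were not used here as lists. The submitters' processing notes name Bowtie2, MACS and hg19; their versions, settings and filters are not given in the sources used here. Vehicle (and IgG for the reChIP) was subtracted per the labels, which do not say how. Each deposited list gives start, end, length and a score whose unit the authors do not state. Scores rise in even steps (all within 0.02 of a whole multiple) that differ between lists, so the score was used only to order and filter within a list. Read depth is unknown, and counts of sites depend on it and on the threshold.

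Positions, which count from 1, were handled with pandas 2.3.3 and NumPy 2.4.6 under Python 3.11.15. Intervals came from SciPy 1.17.1 and figures from matplotlib 3.10.9. A site belonged to the bin or arm of its centre, and chromosome length was the last site end of any list, 135524587. Dense windows were 1 Mb wide, moved by 100 kb, and runs were sites with successive centres within 100 kb. Overlap of 1 bp or more counted as shared. The overlap routine was tested on simulated data. Named sites were the 3 of highest score per list, regions in 6 or more lists and the fullest bins, windows and runs. Members, lists and zones were chosen with earlier results of these data known. No test was made, since sites of 1 library are not replicates. Planned gene names were not used here, because the annotation at hand is of another build.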

Additional observations from a re-analysis of the deposited data

Results flagged for a closer look

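The number of ER sites on chromosome 10 moved in opposite directions in the 2 lines in 3 contrasts, a difference that was not tested, since each list is 1 library. With both hormones over E2 the ratio was 4.10 in T47D and 0.675 in PR-deficient cells (4.83 and 0.735 on all other chromosomes). With both hormones over R5020 it was 3.13 and 0.907 (3.63 and 0.609 on all other chromosomes). With R5020 over E2 it was 1.31 and 0.745, where all other chromosomes gave 1.33 and 1.21, so that the PR-deficient ratio lay below 1 on chromosome 10 and above 1 elsewhere. With the lowest score kept raised by 1 step the first contrast stayed opposite (4.42 and 0.622), while the second became 6.38 and 1.59 and the third 0.693 and 0.391, each then in 1 direction. Without the flanks of the long empty stretch all 3 stayed opposite, at 3.17 and 0.679, 2.65 and 0.965, and 1.20 and 0.704.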

How the results depend on the processing

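Of 356 values recomputed under other settings, 281 moved by less than their counting interval and 75 by more; the cause was not tested beyond what each setting does by construction. No paired analysis was possible because no group has more than 1 library. Settings for the flanks of the long empty stretch, the dense stretch at 47 Mb and the part beyond 105 Mb, and leaving the flanks out of sharing and regions, were chosen after seeing the data. Depth is unknown, so its limit on these counts cannot be given. Values are percent of a list's chromosome 10 sites unless said otherwise.

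With the higher-scoring 50% of each list, the chromosome 10 share of the list was 5.42 for T47D ER with both hormones, 4.98 for T47D ER with R5020 and 6.86 for the reChIP. The p arm share was 41.7 for T47D ER with both hormones and 27.2 for the reChIP. The fullest 5 Mb bin held 23.4 and 35.8 in these lists and, for PR-deficient ER with E2, 11.5 (then 80 to 85 Mb). The fullest 1 Mb window held 21.9 for T47D ER with both hormones, 13.2 for PR with both and 33.7 for the reChIP. The flanks held 34.4 for T47D ER with both hormones, 13.5 for T47D ER with R5020, 53.0 for the reChIP and 13.9 for PR-deficient ER with R5020. The dense stretch held 0 for T47D ER with E2, 0.384 for T47D ER with both hormones, 6.56 for PR with E2, 12.1 for PR with both, 1.48 for the reChIP and 0.633 for PR-deficient ER with R5020. The part beyond 105 Mb held 6.05 for PR with both. T47D ER sites with E2 met those with R5020 in 1.67, T47D ER sites with R5020 met those of both hormones in 26.3, and 83.4% of regions were held by 1 list. With the lowest score raised by 1 step, the flanks held 13.6 for T47D ER with R5020 and 14.3 for PR-deficient ER with R5020, and the dense stretch 6.42 for PR with E2 and 0.649 for PR-deficient ER with R5020.

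With sites within 500 bp merged, the reChIP had 5.66 of its sites on chromosome 10, 36.8 of these on the p arm, 12.8 in its fullest window and 22.5 in the flanks. T47D ER with both hormones had 9.02 in its fullest window and 15.2 in the flanks, and PR with both had 8.32 in its fullest window and 7.13 in the dense stretch. With sites within 5 kb merged, the flanks held 4.55 for T47D ER with both hormones and 10.3 for the reChIP. The dense stretch then held 6.15 for T47D ER with R5020, 3.37 for PR with R5020 and 2.78 for PR with both, and the part beyond 105 Mb 16.2 for T47D ER with both. Without the flanks, T47D ER with both hormones had 3.84 of its sites on chromosome 10, 27.9 of these on the p arm, 8.49 in the fullest bin (then 45 to 50 Mb, not 35 to 40) and 16.7 beyond 105 Mb. The reChIP then had 4.05, with 10.7 in the fullest bin (then 0 to 5 Mb, not 40 to 45), 20.5 beyond 105 Mb, 22.8 at ER sites and 15.9 at PR sites of both hormones. With bins moved by 2.5 Mb the fullest bin of PR-deficient ER with E2 held 12.4.

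Where the overlap had to cover 50% or more of each of the sites, T47D ER sites with E2 met those with R5020 in 0.866, those of both hormones in 2.60, PR sites with E2 in 0 and PR-deficient sites with E2 in 46.3. T47D ER sites with R5020 met PR sites in 1.32, and T47D ER sites of both hormones met PR sites in 4.12 and PR-deficient sites in 0.740. PR sites with E2 met those with R5020 in 0.395 and those of both in 6.32, PR sites with R5020 met those of both in 1.27, and reChIP sites met ER sites in 13.8 and PR sites in 7.58. With centres within 200 bp, and likewise with every site set to 200 bp, T47D ER sites with E2 met those with R5020 in 5.19, those of both in 15.6 and PR-deficient sites in 39.0, and T47D ER sites of both met PR-deficient sites in 2.01. With every site set to 200 bp, 84.4% of regions were held by 1 list and 4.96% by 3 or more.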

Other observations

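The tip of the q arm was held mostly by the reChIP list. Its last 100 kb carried 28 reChIP sites (4.61%, 3.09 to 6.60, of that list), in a run from 135462605 to 135523760, and 8 of PR-deficient ER with R5020, while the other lists had 0 to 5 there. The second highest ER site with R5020 in T47D, chr10:135501489-135501805, lay within the span of this run and was in no other list. None of the 28 reChIP sites met an ER or PR site of both hormones.

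In 8 of the 10 lists a smaller share of high-scoring than of low-scoring sites was held by 1 list alone. Of the highest-scoring 20% of sites on chromosome 10, 0% of the PR-deficient ER sites with E2 and 39.9% of the PR sites with both hormones were in no other list, against 39.3 and 83.6% of the lowest-scoring 20%. For the reChIP, 1 of the other 2, the shares were 83.5% of the highest-scoring and 59.0% of the lowest-scoring sites. Of the 121 reChIP sites that scored highest, 102 lay in the flanks of the long empty stretch, and of the 19 elsewhere 31.6% were in no other list. For PR-deficient ER with R5020 they were 45.2 and 41.3%. These groups were formed within each list, with tied scores taken by position.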
